A study of Homo sapiens with 6 samples.

Results

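The genes of the motile cilium and of its dynein motors were followed in HCC827 cells, a human lung adenocarcinoma line with an activating EGFR deletion, after 24 h with the vehicle DMSO or with 1 μM erlotinib, an inhibitor of the EGFR kinase. Genes were taken by name from the deposited table: symbols that start with DNAH, DNAI, DNAL, DNAAF, CFAP, RSPH, TEKT or DRC and a number, plus FOXJ1, MCIDAS, RFX2, RFX3, CCDC39, CCDC40, ZMYND10, HYDIN, SPAG6, SPEF2, ARMC4, CCNO and FSIP1. This gave 89 of 28395 genes, of which 84 code for proteins, 4 are long non-coding transcripts (DNAH17-AS1, CFAP44-AS1, CFAP58-DT and the readthrough DNAAF4-CCPG1) and 1 is a pseudogene (TEKT4P2).

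RNA was sequenced in 6 libraries, 3 with DMSO (1 to 3) and 3 with erlotinib (4 to 6), all from the same line. Reads assigned to genes numbered 20858083, 24641819 and 21172884 with DMSO and 21944007, 20760204 and 21678395 with erlotinib. Values are given as signal, the reads of a gene divided by 1 size factor per library, so that 1 unit is close to 1 read. The methods say in general that experiments were repeated independently, but neither they nor the labels say whether the 3 libraries of a condition were separate cultures, so the tests measure the spread between these libraries.

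Motile cilia beat through a ring of doublet microtubules, the axoneme, on which outer and inner dynein arms act as motors, while radial spokes, the nexin-dynein regulatory complex and a central pair of microtubules coordinate the beat. Dynein arms are put together in the cytoplasm by dedicated assembly factors before they are carried into the cilium. In airway epithelium the ciliated cells switch these genes on through the transcription factor FOXJ1 together with RFX factors, which bind a DNA element called the X-box.

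With erlotinib, members of every axonemal group were among those higher, with DNAH5, DNAH2, RSPH3, DNAL4 and CFAP53 among those that averaged 10 or more in both groups, and some abundant members, among them CFAP20 and DNAAF5, were lower. FOXJ1, ZMYND10 and FSIP1 had 4, 10 and 6 reads over the DMSO libraries and 470, 335 and 186 over the erlotinib libraries, and were tested only through the latter. For each of the 14215 genes whose signal averaged 10 or more across the libraries, limma compared the groups on the scale of log2(signal + 1), and Benjamini-Hochberg adjusted p-values were held to a threshold of 0.05. Of the 89 genes, 52 were tested and 37 were not. Among the tested members 35 were higher, 8 were lower and 9 did not pass, whereas of all tested genes 35.3% were higher and 35.4% lower. Scaled to the total count instead, 6156 of all tested genes were higher and 3955 lower, against 5012 and 5031, and 37 members were higher and 4 lower.

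The count of 35 holds 9 members that reached the mean of 10 only through the erlotinib libraries (FOXJ1, ZMYND10, FSIP1, DNAH7, DNAAF1, DNAI1, CFAP206, RSPH9 and TEKT5), and which therefore had to differ. The other 43 tested members averaged 10 or more in both groups. Of these, 26 were higher (60.5%), 8 were lower (18.6%) and 9 did not pass, and their median change was 0.65 on the log2 scale. Among the 13422 tested genes at 10 or more in both groups, 33.8% were higher and 36.7% lower, with a median of -0.02. The plot of the distribution of changes sets the 43 members beside these genes.

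**Figure D1:**
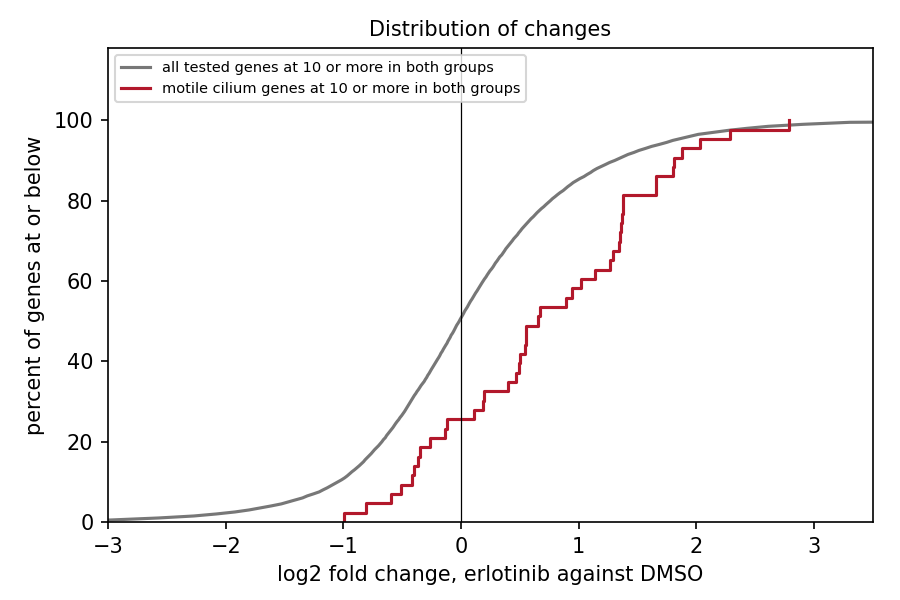
The x axis gives the log2 fold change of erlotinib against DMSO and the y axis the percent of genes at or below it, for the 43 motile cilium genes (red steps) and all 13422 tested genes (grey line) that averaged a signal of 10 or more in both groups. The red steps lie to the right of the grey line over most of the range, with medians of 0.65 and -0.02.

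The 5 regulators did not move together. FOXJ1, a forkhead factor that turns on the motile cilium program (chr17:76136333-76141245, GRCh38.p14), had a signal of 2.27, 1.86 and 0 in the DMSO libraries and of 159, 145 and 142 in the erlotinib libraries. It was close to absent in every DMSO library and the erlotinib libraries stood far above them. The reads came to 4 with DMSO and 470 with erlotinib, a ratio of 107 after scaling (95% interval of 41.7 to 396, counting error only), and the log2 fold change was 6.15 ± 0.50 (SE, limma, adjusted p = 7e-10). At so few DMSO reads its size followed the pseudocount, at 7.58 with 0.1 and 3.81 with 10 in place of 1, and was 6.76 in DESeq2. In bulk RNA, more cells that express a gene and more RNA per cell cannot be told apart. FOXJ1 overlaps the opposite-strand transcript RNF157-AS1, which went from a mean of 9.5 to 149, but the 2 share 9 of the 2587 exon bases of FOXJ1.

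RFX3, an X-box binding factor, measured 362, 346 and 289 with DMSO and 722, 771 and 693 with erlotinib. The erlotinib libraries were all near a doubled level, without overlap (log2 fold change 1.13 ± 0.11, limma, adjusted p = 1.3e-08). RFX2, its relative, measured 243, 225 and 187 against 165, 188 and 159. The lowest DMSO library lay just under the highest erlotinib library, and the difference of -0.35 ± 0.16 did not pass (limma, adjusted p = 0.053), although it did without DMSO library 3 (-0.45, adjusted p = 0.022) and without erlotinib library 5 (-0.42, adjusted p = 0.047).

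CCNO and MCIDAS, neighbours on chromosome 5 that both act when a ciliated cell makes many centrioles, went opposite ways. CCNO, cyclin O (chr5:55231152-55233608), measured 277, 255 and 250.4 with DMSO and 439, 356 and 454 with erlotinib. It rose without overlap between the groups, by 0.67 ± 0.13 on the log2 scale (limma, adjusted p = 9.7e-05). MCIDAS, or multicilin (chr5:55219564-55227315), measured 180.4, 201 and 184 with DMSO and 137, 143 and 144 with erlotinib. All erlotinib libraries were below all DMSO libraries (-0.41 ± 0.16, limma, adjusted p = 0.023), but the call was lost with scaling to the total count (-0.23, adjusted p = 0.19) and without DMSO library 2 (-0.37, adjusted p = 0.056), erlotinib library 4 (-0.39, adjusted p = 0.068) or erlotinib library 5 (-0.42, adjusted p = 0.051).

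The DNA just before the members' start sites was read for the letters of the elements that these factors bind, which the choice of members had not used. RefSeq promoters of GRCh38.p14 were held for 72 of the 89 members and for 27305 genes in all, 1 or more starts per gene, and the 250 bases before each start were searched. The X-box was taken as GTNNCC followed after 0 to 3 bases by NGNAAC, with N any base, and the forkhead element as TGTTTAC, each on both strands. The X-box letters stood before 23 of 72 members (31.9%), against 5.17% of all genes and 6.14% of the 11130 tested genes with an entry. They stood before 6 of the 28 members with an entry that were higher (21.4%), 2 of the 7 that were lower (28.6%) and 13 of the 32 that were not tested (40.6%). The forkhead letters were before 4 of 72 members (5.56%), against 3.66% of all genes. CFAP58 and CFAP58-DT share 1 match between their start sites, and RSPH10B and RSPH10B2 hold the same sequence.

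Stretches that hold a match are shown for members that rose, with up to 20 bases on either side and the matched letters in capitals, each written 5′ to 3′ on the strand of its gene. DNAH1 had 2 X-box matches, DNAH2, RSPH9 and CCNO had 1 each, CFAP126 had an X-box match and a forkhead match that do not overlap, and CFAP43 had a forkhead match. The sixth member that rose with X-box letters, CFAP410, had 2 matches, the nearer of them ending 1 base before a start site, and is not printed. Both DNAH1 stretches and both CFAP410 matches lie before a start site inside the annotated gene.
DNAH1 (chr3:52316126-52316178, plus strand): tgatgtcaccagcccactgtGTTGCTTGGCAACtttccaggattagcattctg
DNAH1 (chr3:52316194-52316247, plus strand): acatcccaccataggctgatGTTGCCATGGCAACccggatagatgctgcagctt
DNAH2 (chr17:7717706-7717743, plus strand): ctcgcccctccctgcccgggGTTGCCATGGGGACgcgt
RSPH9 (chr6:43644865-43644918, plus strand): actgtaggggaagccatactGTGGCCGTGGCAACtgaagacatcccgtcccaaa
CCNO (chr5:55233812-55233858, minus strand): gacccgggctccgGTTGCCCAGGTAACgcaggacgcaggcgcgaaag
CFAP126 (chr1:161367877-161367922, minus strand): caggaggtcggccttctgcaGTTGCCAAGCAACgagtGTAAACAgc
CFAP43 (chr10:104232497-104232543, minus strand): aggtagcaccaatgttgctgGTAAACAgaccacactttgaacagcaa

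The X-box letters also stood before 2 members that were lower, DNAH11 and CFAP298, shown so that the stretches can be set beside those above. The capitals again mark the matched letters, and a match describes the sequence only.
DNAH11 (chr7:21542991-21543038, plus strand): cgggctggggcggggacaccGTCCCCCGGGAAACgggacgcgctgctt
CFAP298 (chr21:32612408-32612462, minus strand): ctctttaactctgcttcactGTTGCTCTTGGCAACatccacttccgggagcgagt
The members with large rises that have an entry, ZMYND10, FSIP1, DNAH7, CFAP206, CFAP53, DNAI1, TEKT5, DNAH5 and SPEF2, had neither set of letters in this window. Only exact matches were counted, so the search does not show that these members lack sites with other letters. FOXJ1, DNAAF1, DNAAF3 and RFX2 are among the 17 members without an entry.

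**Figure D2:**
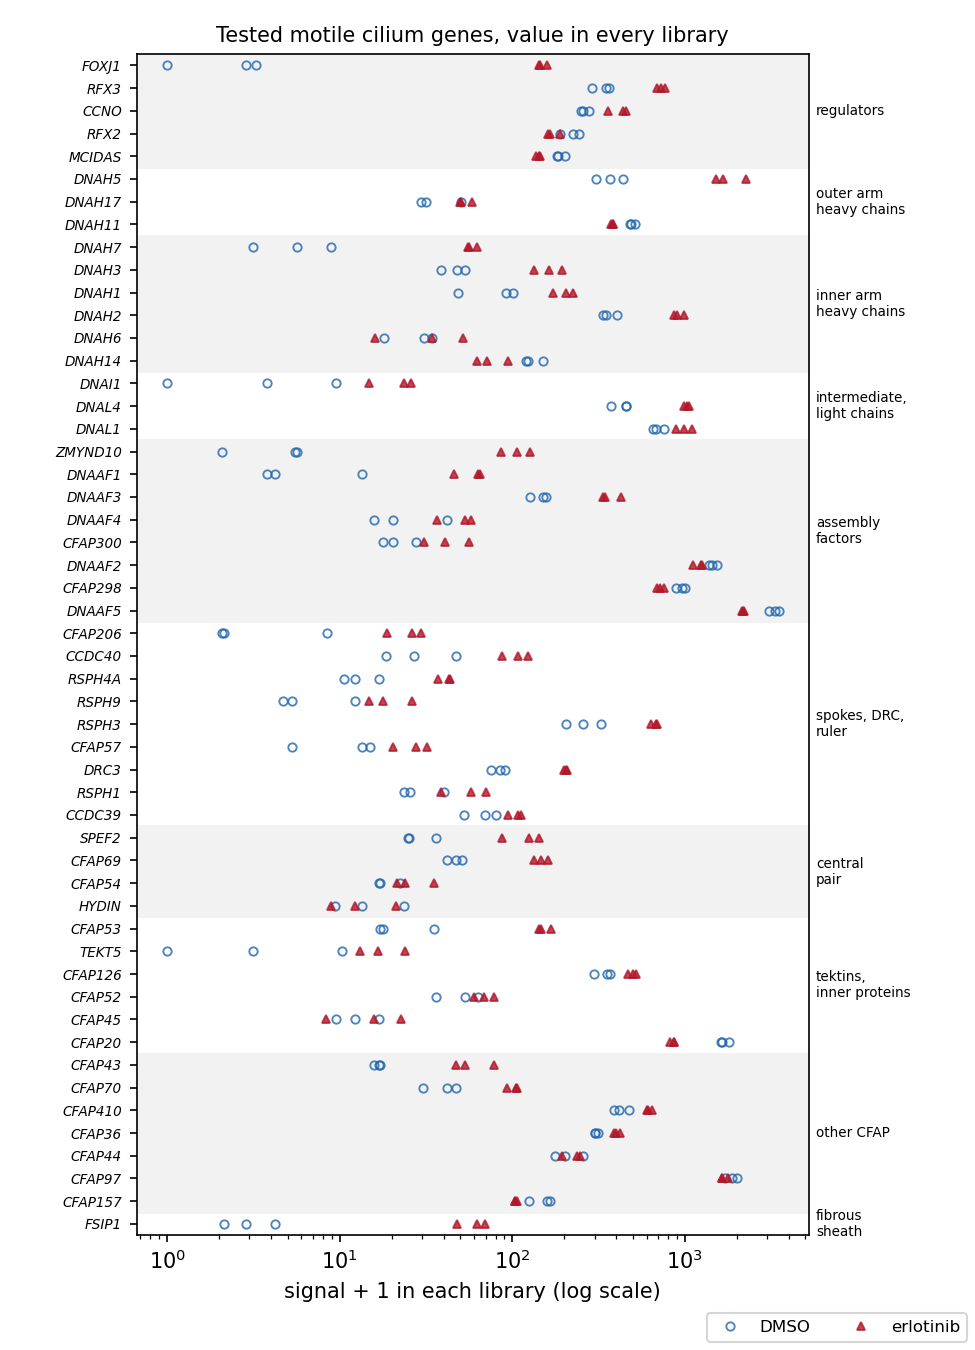
Each row is 1 of the 52 tested members, ordered by role and then by change, and the x axis gives signal + 1 on a log scale, with DMSO libraries as open circles and erlotinib libraries as filled triangles. FOXJ1 lies between 0 and 2.27 with DMSO and between 142 and 159 with erlotinib, while the triangles of CFAP20 and DNAAF5 lie to the left of the circles.

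The outer arm heavy chains, the motor subunits that give most of the beat's power, were 5 in the table and 3 tested, with 1 higher, 1 lower and 1 that did not pass. DNAH5, present along the whole ciliary axoneme (chr5:13690328-14011818), measured 369, 435 and 304 with DMSO and 1667, 1507 and 2251 with erlotinib. The groups stood well apart, with library 6 the highest (log2 fold change 2.28 ± 0.13, limma, adjusted p = 3.3e-12). DNAH11, the heavy chain of the base of the cilium (chr7:21543039-21901839), measured 478, 509.8 and 487 against 385, 372 and 383. It was lower in every erlotinib library (-0.37 ± 0.11, limma, adjusted p = 0.0041), a call lost with scaling to the total count (-0.19, adjusted p = 0.12), and 5.16% of its exon bases are shared with CDCA7L on the other strand, which went from 1892 to 1111.

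DNAH9, which pairs with DNAH5 in the outer arms of the outer part of airway cilia, had 4 reads in DMSO library 3 and 0 in the other 5 libraries. DNAH8, a sperm chain, had 1 read in all. DNAH17, the other sperm chain, had means of 36.2 ± 11.3 and 52.0 ± 4.72 (SD, n = 3), and its difference of 0.55 ± 0.30 did not pass (limma, adjusted p = 0.11), though it did with scaling to the total count (0.72, adjusted p = 0.04) and without DMSO library 3 (0.78, adjusted p = 0.035). Per kb of exon sequence, the mean signal with erlotinib was 72.8 for DNAH5, 23.5 for DNAH11, 3.23 for DNAH17 and 0 for DNAH9, whereas with DMSO DNAH11 had the highest level of these at 30.4, above DNAH5 at 14.9.

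Of the 8 inner arm heavy chains, which shape the bend of the cilium, 6 were tested, and 4 were higher, 1 was lower and 1 did not pass. Without DNAH7, tested only through the erlotinib libraries, 3 of 5 were higher. DNAH7 measured 7.94, 4.64 and 2.14 with DMSO and 61.8, 55.4 and 54.3 with erlotinib. It went from a few reads to a level that the 3 erlotinib libraries shared closely (log2 fold change 3.42 ± 0.48, limma, adjusted p = 2.2e-06; 2.19 with a pseudocount of 10). DNAH3 measured 37.4, 52.0 and 47.1 against 132, 161 and 192, a rise of 1.80 ± 0.22 on the log2 scale with no overlap (limma, adjusted p = 4.2e-07). DNAH2 had the highest signal of the group, at 335, 347 and 401 with DMSO and 859, 898 and 992 with erlotinib. It more than doubled in each erlotinib library against each DMSO library (1.34 ± 0.11, limma, adjusted p = 3.9e-10). DNAH1 had means of 79.6 ± 28.1 and 199.97 ± 26.0 (SD, n = 3) and a change of 1.38 ± 0.23 (limma, adjusted p = 2.4e-05).

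DNAH14 was the member of this group that fell. Its signal was 119, 150.4 and 123 with DMSO and 93.2, 61.4 and 70.2 with erlotinib, lower in every erlotinib library (-0.81 ± 0.21, limma, adjusted p = 0.002). DNAH6 overlapped between the groups, at 17.0, 33.4 and 30.0 against 33.2, 50.5 and 14.98, and did not pass (0.18 ± 0.43, limma, adjusted p = 0.71), with a sign that turned without DMSO library 1 (-0.10) or erlotinib library 5 (-0.20). DNAH10 and DNAH12 had 8 and 7 reads over the erlotinib libraries and were not tested.

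All 3 tested members of the 5 intermediate, light and docking chains, the parts that hold the outer arm together and fix it to the doublet, were higher, but DNAI1 was tested only through the erlotinib libraries and had to differ, which leaves 2 of 2. DNAL4, a dynein light chain, measured 457, 371 and 454 with DMSO and 988, 1025 and 1053 with erlotinib. Its mean with erlotinib was the highest of the group, at 1022, whereas with DMSO the mean of DNAL1 was higher. For DNAL4, every erlotinib library was more than 2 times as high as every DMSO library (1.26 ± 0.10, limma, adjusted p = 6.1e-10). DNAI1, an outer arm intermediate chain, measured 0, 2.79 and 8.56 with DMSO and 13.8, 24.7 and 22.5 with erlotinib, a low but separate level (2.65 ± 0.78, limma, adjusted p = 0.0049). Its log2 fold change was 1.79 without DMSO library 1 and 3.42 without DMSO library 3, and 3.87 and 1.17 with pseudocounts of 0.1 and 10. DNAL1, a light chain that binds DNAH5, had means of 697 ± 53.9 and 990.0 ± 106 (SD, n = 3; 0.50 ± 0.10, limma, adjusted p = 0.00012). The partner of DNAI1, DNAI2, was listed at 0 in all 6 libraries, and ARMC4, a docking protein, had 18 reads with DMSO and 23 with erlotinib.

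The 8 assembly factors were all tested, with 5 higher and 3 lower. ZMYND10 and DNAAF1 were tested only through the erlotinib libraries and had to be higher, and of the 6 at 10 or more in both groups 3 were higher and 3 lower. ZMYND10 (chr3:50341112-50345732) measured 4.54, 4.64 and 1.07 with DMSO and 126, 85.1 and 106 with erlotinib. Its reads went from 10 to 335, a ratio of 30.6 after scaling (95% interval of 16.5 to 64.5, counting error only), and the log2 fold change was 4.71 ± 0.47 (limma, adjusted p = 1.4e-08; 3.10 with a pseudocount of 10). DNAAF1 measured 12.5, 2.79 and 3.21 against 63.7, 62.4 and 44.9, again with wide separation (3.26 ± 0.51, limma, adjusted p = 8.4e-06; 2.09 with a pseudocount of 10). TAF1C, on the other strand, shares 5.78% of the exon bases of DNAAF1 and went from 2067 to 3123. DNAAF3 rose from 144 ± 15.4 to 368 ± 50.4 (SD, n = 3; 1.35 ± 0.15, limma, adjusted p = 7e-08).

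DNAAF4 and CFAP300 were called higher at low signal, by 1.02 ± 0.38 and 0.94 ± 0.37 on the log2 scale (limma, adjusted p = 0.022 and 0.028). Neither call was held when single libraries were left out: DNAAF4 lost it without DMSO library 1 (0.72, adjusted p = 0.088), erlotinib library 4 (0.90, adjusted p = 0.092) or 6 (0.95, adjusted p = 0.075), and CFAP300 without DMSO library 2 (0.80, adjusted p = 0.068), erlotinib library 4 (0.95, adjusted p = 0.065) or 6 (0.72, adjusted p = 0.16), and also with no filter on low values (0.94, adjusted p = 0.057).

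The 3 lower factors were the 3 most abundant. DNAAF5 (chr7:726699-786475) had the highest signal of all 89 members, 3495, 3060.0 and 3319 with DMSO and 2168, 2192 and 2146 with erlotinib. The erlotinib libraries lay close together and below the DMSO libraries (-0.60 ± 0.07, limma, adjusted p = 1.8e-07). Of its exon bases 5.39% are shared with PRKAR1B on the other strand, which went from 1897 to 1112. CFAP298 measured 891, 961 and 1001 against 751, 686 and 721 (-0.40 ± 0.09, limma, adjusted p = 0.00047), also without overlap. DNAAF2 went from 1446 ± 79.1 to 1204 ± 74.0 (SD, n = 3; -0.26 ± 0.08, limma, adjusted p = 0.0066), a call lost with scaling to the total count (-0.09, adjusted p = 0.35) and without erlotinib library 6 (-0.21, adjusted p = 0.054).

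**Figure D3:**
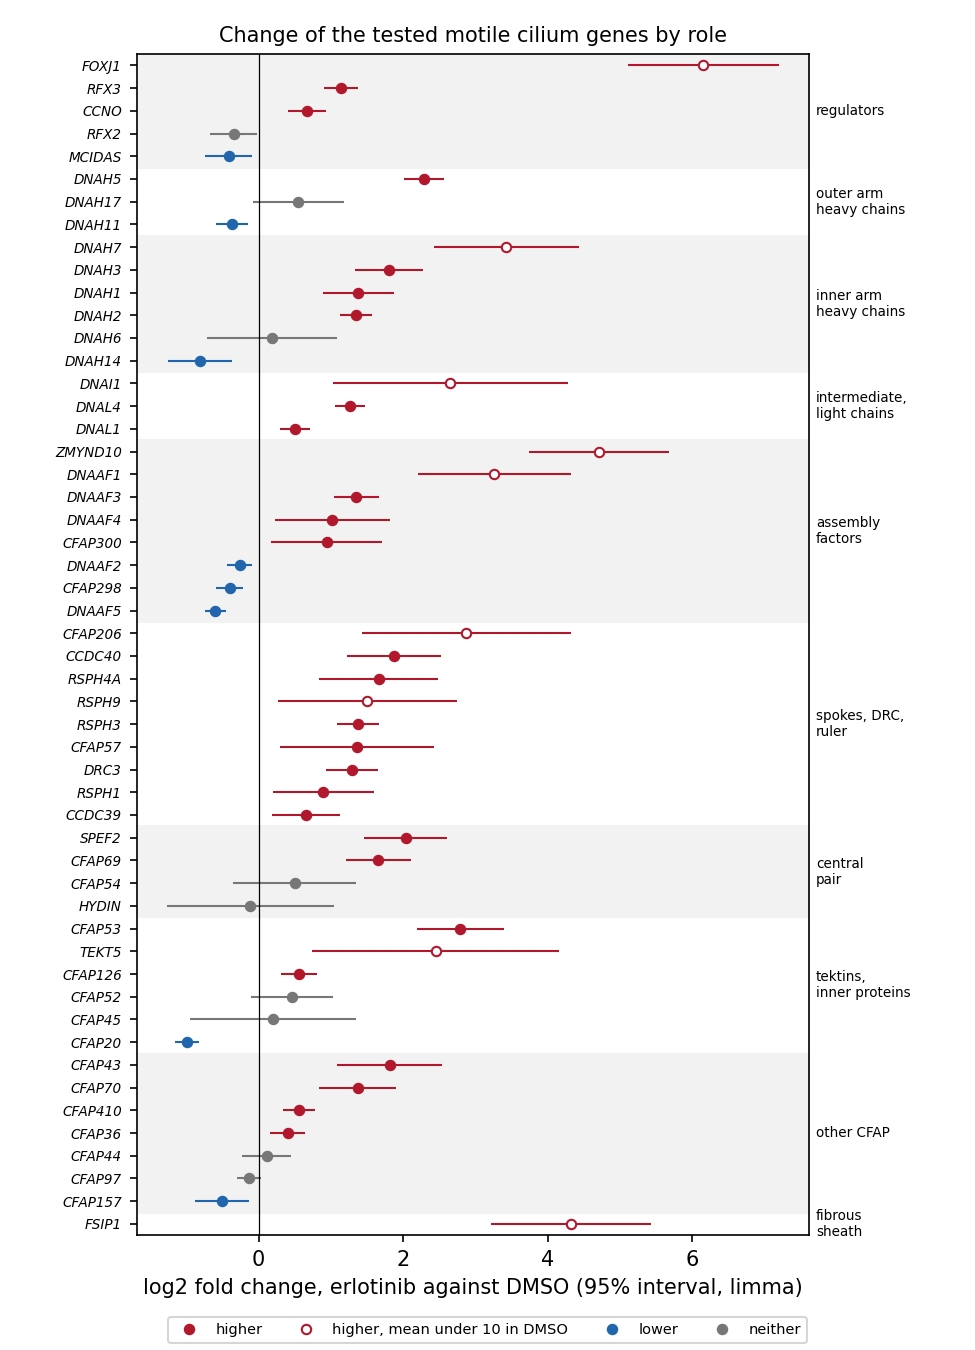
Points give the log2 fold change of erlotinib against DMSO for the 52 tested members by role, with 95% intervals from limma; red is higher, blue lower and grey neither, and open red points had a mean signal under 10 with DMSO. FOXJ1 at 6.15 is farthest to the right, all 9 tested members of the spokes, regulatory complex and ruler are red, and CFAP20 at -0.99 is farthest to the left.

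In the group of the radial spokes, the nexin-dynein regulatory complex (DRC) and the ruler that sets their spacing, 9 of 16 members were tested. All 9 were higher, but CFAP206 and RSPH9 were tested only through the erlotinib libraries and had to differ, which leaves 7 of 7. RSPH3, a spoke protein and the most abundant of them, measured 256, 203 and 325 with DMSO and 636, 677 and 692 with erlotinib. The groups did not overlap (1.37 ± 0.14, limma, adjusted p = 1.9e-08). CCDC40, which forms the ruler with CCDC39, measured 26.1, 17.6 and 46.0 against 86.7, 107 and 123, with all erlotinib libraries above (1.87 ± 0.31, limma, adjusted p = 1.9e-05). CFAP206, a spoke-base protein, measured 1.13, 7.43 and 1.07 against 28.6, 17.8 and 25.3, a separate level in the erlotinib libraries (2.87 ± 0.69, limma, adjusted p = 0.00096; 3.54 without DMSO library 2 and 1.38 with a pseudocount of 10).

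DRC3 rose from 82.5 ± 7.71 to 202 ± 4.34 and RSPH4A, a spoke head protein, from 12.3 ± 3.18 to 40.2 ± 3.68 (SD, n = 3), with limma adjusted p of 1.3e-06 and 0.00086. The other 4 calls of the group rested on fewer reads or smaller changes. CCDC39 (0.65 ± 0.23, limma, adjusted p = 0.014) lost the call without DMSO library 3 (0.48, adjusted p = 0.067) or erlotinib library 4 (0.60, adjusted p = 0.059). RSPH1, of the spoke head (0.89 ± 0.33, limma, adjusted p = 0.022), lost it without DMSO library 1 (0.75, adjusted p = 0.06) or 3 (0.80, adjusted p = 0.06) and without erlotinib library 4 (0.85, adjusted p = 0.07) or 6 (0.70, adjusted p = 0.13). RSPH9, also of the spoke head (1.5 ± 0.59, limma, adjusted p = 0.03; 0.81 with a pseudocount of 10), lost it without DMSO library 2 (1.24, adjusted p = 0.066) or 3 (1.32, adjusted p = 0.064) and without erlotinib library 5 (1.55, adjusted p = 0.064) or 6 (1.27, adjusted p = 0.14), and MRPS18A on the other strand shares 26.7% of its exon bases. CFAP57, an inner arm adapter (1.36 ± 0.51, limma, adjusted p = 0.023), lost it without DMSO library 3 (0.89, adjusted p = 0.092) and without erlotinib library 5 (1.32, adjusted p = 0.065) or 6 (1.22, adjusted p = 0.094).

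Among the 7 members of the group that were not tested, DRC7 was at 0 in every DMSO library and at 14.8, 10.9 and 14.04 with erlotinib. Against a floor of 3 reads in a library, its erlotinib mean was at least 3.89-fold higher. RSPH14 went from 1 read to 18 and CFAP61 from 7 to 21, whereas DRC1, a core protein of the DRC, had 4 reads in all, and RSPH10B and RSPH10B2, near-identical copies on chromosome 7, were at 0.

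Of the 10 central pair genes, 4 were tested, 2 were higher and 2 did not pass. SPEF2 measured 23.8, 24.1 and 35.3 with DMSO and 141, 86.1 and 124 with erlotinib, and each erlotinib library lay above the DMSO libraries (2.03 ± 0.28, limma, adjusted p = 1.4e-06). CFAP69, the most abundant of the group, measured 40.8, 50.1 and 46.0 against 146, 160.4 and 132, with a wide gap (1.66 ± 0.22, limma, adjusted p = 7.4e-07). HYDIN, whose product is a large projection protein of the central pair, measured 12.5, 8.36 and 22.5 against 20.3, 7.92 and 11.2. Its libraries were mixed, the change of -0.12 ± 0.55 did not pass (limma, adjusted p = 0.86), and its sign turned with scaling to the total count (0.05), without DMSO library 3 (0.24) and without erlotinib library 5 (0.17). CFAP54 did not pass either (0.50 ± 0.41, limma, adjusted p = 0.29), and its change ranged from 0.28 to 0.64 with 1 library left out. SPAG6 had 8 reads with DMSO and 21 with erlotinib.

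Of the 12 tektins and proteins that line the inside of the doublet, 6 were tested, with 3 higher, 1 lower and 2 that did not pass. Without TEKT5, tested only through the erlotinib libraries, 2 of 5 were higher. CFAP53, needed for left-right asymmetry, measured 34.0, 16.7 and 16.1 with DMSO and 145, 166 and 142 with erlotinib. Every erlotinib library was several times the highest DMSO library (2.79 ± 0.29, limma, adjusted p = 3.1e-08). TEKT5, a tektin of the sperm flagellum, measured 0, 9.29 and 2.14 against 15.7, 22.8 and 12.2, with little room between the groups (2.45 ± 0.82, limma, adjusted p = 0.011; 2.22 without erlotinib library 5, adjusted p = 0.061). Its log2 fold change was 1.61 without DMSO library 1 and 3.29 without DMSO library 2, and 3.68 and 1.00 with pseudocounts of 0.1 and 10. CFAP126, which helps to place basal bodies, rose from 339 ± 37.6 to 497 ± 28.1 (SD, n = 3; 0.56 ± 0.12, limma, adjusted p = 0.00027).

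CFAP20 (chr16:58113592-58129381), a protein of the inner junction of the doublet, showed the largest fall among the tested members. Its signal was 1629, 1813 and 1638 with DMSO and 819, 865 and 863 with erlotinib, and per kb of exon sequence the mean went from 735 to 369. The erlotinib libraries lay far below the DMSO libraries (-0.99 ± 0.08, limma, adjusted p = 7.1e-10). CFAP52 (0.47 ± 0.27, limma, adjusted p = 0.13; 0.64 and adjusted p = 0.041 with scaling to the total count) and CFAP45 (0.20 ± 0.55, adjusted p = 0.76; -0.12 without erlotinib library 6) did not pass. With 1 library left out, the change of CFAP52 ranged from 0.24 to 0.64. The classical ciliary tektins stayed near 0: TEKT1 had 0 reads with DMSO and 8 with erlotinib, TEKT2 6 and 2, and TEKT4 2 and 2, while TEKT3 had 2 and 29.

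The other cilia and flagella associated proteins numbered 19, with 7 tested, 4 higher, 1 lower and 2 that did not pass. CFAP43, which tethers inner arm motors, measured 15.9, 14.9 and 16.1 with DMSO and 46.1, 77.2 and 52.4 with erlotinib, clear of the tight DMSO values (1.81 ± 0.35, limma, adjusted p = 9.6e-05). Its partner CFAP44 was at 201, 254 and 177 against 245, 194 and 238. These values overlapped and did not pass (0.11 ± 0.16, limma, adjusted p = 0.56), with -0.0094 when DMSO library 3 was left out. CFAP70, an outer arm associated protein, measured 29.5, 46.4 and 40.7 against 104, 105 and 91.7, with all erlotinib libraries higher (1.37 ± 0.25, limma, adjusted p = 6.5e-05).

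CFAP97, the most abundant of these, measured 1706, 1996 and 1868 against 1784, 1643 and 1636 and did not pass (-0.14 ± 0.08, limma, adjusted p = 0.13). It was 0.04 with scaling to the total count, and -0.20 with an adjusted p of 0.047 without DMSO library 1. CFAP157, a basal body protein, measured 125, 163 and 157 against 105, 103 and 102. It was lower without overlap (-0.51 ± 0.18, limma, adjusted p = 0.017), but not with scaling to the total count (-0.33, adjusted p = 0.12) or without DMSO library 2 (-0.44, adjusted p = 0.056) or 3 (-0.46, adjusted p = 0.055). CFAP410 and CFAP36 rose by 0.55 ± 0.11 and 0.40 ± 0.11 (limma, adjusted p = 0.0001 and 0.0041).

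FSIP1, which binds a protein of the fibrous sheath of the sperm tail (chr15:39597440-39782841), measured 1.13, 1.86 and 3.21 with DMSO and 68.3, 61.4 and 46.8 with erlotinib. It went from 6 reads to 186, a ratio of 28.4 after scaling (95% interval of 12.8 to 78.3, counting error only), and the log2 fold change was 4.32 ± 0.53 (limma, adjusted p = 3.3e-07; 2.50 with a pseudocount of 10). Of its 3463 exon bases, 448 are shared with THBS1 on the other strand, which had means of 2558 and 2840. The strand used in counting is not given in the sources used here, so reads from shared bases cannot be told apart. This also touches CFAP57, which shares 8.72% of its exon bases with EBNA1BP2 (4308 to 1372), DRC3, which shares 8.81% with ATPAF2 (688 to 675), CFAP70, which shares 8.61% with DNAJC9-AS1 (12.6 to 19.0), and CCDC39, which shares 3.69% with TTC14 (476 to 791).

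The 37 members that were not tested held 111 reads over the DMSO libraries and 347 over the erlotinib libraries. At 0 in all libraries were CFAP97D2, DNAAF4-CCPG1, DNAI2, CFAP299, RSPH10B and RSPH10B2. Of the 4589 exon bases of DNAAF4-CCPG1, 3405 are shared with CCPG1 and 1184 with DNAAF4, and RSPH10B and RSPH10B2 are copies of each other, so reads from these 3 may not have been assigned to them and their 0 does not show that they were not expressed. Of the others, named after their values were seen, DRC7 had 0 reads with DMSO and 42 with erlotinib, and DNAH9 had 4 and 0. The summed signal of all 89 members was 15259, 15405 and 15333 with DMSO and 18675, 18003 and 18957 with erlotinib, so that the sum was higher in each erlotinib library although DNAAF5, DNAAF2 and CFAP20, all abundant, were lower.

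Genes outside the name rule were read from lists of related function. Of 52 other motile cilium genes, 39 were tested, 29 were higher and 3 were lower, and 25 of the 35 at 10 or more in both groups were higher (71.4%) with 3 lower (8.57%). PIFO and MORN3 averaged under 10 with DMSO and were tested only through the erlotinib libraries, so they had to differ. PIFO, a protein of the ciliary base, measured 11.3, 5.57 and 9.63 against 415, 389 and 376 (log2 fold change 5.37 ± 0.27, limma, adjusted p = 3e-13). MORN3 and CAPS, a calcium-binding protein, rose by 3.79 ± 0.66 and 3.62 ± 0.23. The 3 lower genes were SPAG1, an assembly factor, and MNS1 and RIBC2, both of the doublet lumen, with changes of -1.29 ± 0.13, -1.36 ± 0.23 and -1.53 ± 0.25.

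Intraflagellar transport carries cargo in all cilia, motile or not. Its 31 genes were all tested, with 17 higher (54.8%), 3 lower (9.68%) and a median change of 0.45. IFT140 rose from 251 to 765, WDR19 from 90.1 to 246 and IFT172 from 93.9 to 225 (log2 fold changes 1.62 ± 0.13, 1.44 ± 0.17 and 1.26 ± 0.18, each past the limma threshold). In the list of centriole amplification and multiciliated fate, 11 of 16 tested genes were lower (68.8%) and 2 were higher (12.5%), with a median of -0.55. PLK4, the kinase that starts centriole duplication in dividing cells as well, measured 1014, 1218 and 1079.9 against 185, 166 and 141 (-2.74 ± 0.12, limma, adjusted p = 4.7e-14). STIL, its partner, and MYB, a transcription factor, fell by 2.21 and 2.07 on the log2 scale, and of the multicilin partners E2F4 fell by 1.11 and E2F5 rose by 0.63. The other gene called higher was CCDC78, from 73.5 to 135 (0.87 ± 0.20, limma, adjusted p = 0.00056). DEUP1 and CDC20B had 1 and 2 reads with DMSO and 3 and 6 with erlotinib, and were not tested. The list holds genes, such as PLK4, that act in dividing cells too, so its counts do not describe ciliated cells alone. TP73, a fate regulator, did not pass (-0.22 ± 0.39, limma, adjusted p = 0.63), and GMNC and FOXN4, early fate regulators, were at 0 in all 6 libraries. The bar plot of calls by list shows these counts.

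**Figure D4:**
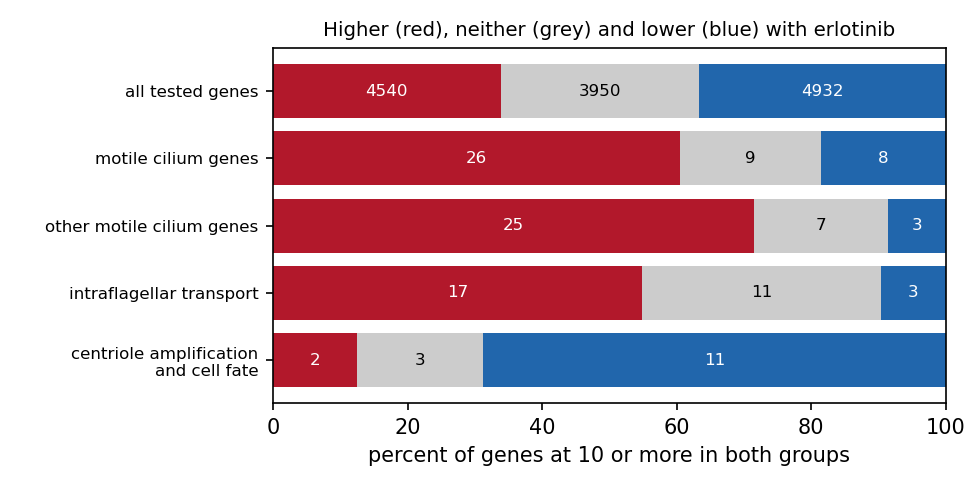
Bars give the percent of genes higher (red), neither (grey) and lower (blue) with erlotinib in each list, over genes that averaged a signal of 10 or more in both groups, with the number of genes printed in each bar segment. The motile cilium genes (26, 9 and 8) and the other motile cilium genes (25, 7 and 3) are mostly red, and the centriole amplification list (2, 3 and 11) is mostly blue.

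Markers of whole cell types were read beside these results. The 10 markers of ciliated cells are all either members or in the list of other motile cilium genes. Their values therefore repeat measurements used above and are not separate evidence. Of 10 markers of ciliated cells, 5 were tested and higher (FOXJ1, PIFO, CAPS, TPPP3 and DNAI1), of which FOXJ1, PIFO and DNAI1 were tested only through the erlotinib libraries and had to differ. The summed signal of the list was 55.6, 48.3 and 71.7 with DMSO and 999, 940.5 and 948 with erlotinib, with PIFO the most abundant. The defining markers DNAI2 and DNAH9 had 0 reads with erlotinib, and TEKT1, TEKT2 and SNTN had mean signals of 2.51, 0.62 and 4.70. Of 9 markers of alveolar type 2 cells, 5 were tested and all 5 were higher, beside 35.3% of all tested genes. Among them were SLC34A2 (15.6 to 132) and NAPSA, the most abundant, while SFTPA2 (9.06 to 229) was tested only through the erlotinib libraries and had to differ. The sum of the 9 markers was 1550, 1363 and 1458 with DMSO and 4814, 4939 and 5227 with erlotinib. SFTPC, the marker most particular to these cells, was at 0 with DMSO and at 0.62 with erlotinib. Of 8 sperm and germ cell markers 7 were at 0 in all libraries, and ACRV1 had means of 16.4 and 4.20. The part of other cell types in the changes of the motile cilium genes was not tested.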

How the data were processed

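Paired-end reads had been aligned by the authors to GRCh38 (Bowtie2 2.3.4), counted per gene (featureCounts 1.6.3) and compared (DESeq2 1.18.1), with versions from the submitters' processing notes. The deposited signal values are reads divided by 1 size factor per library: dividing by each library's step gave whole reads for 100% of values (tolerance 0.001). All 6 columns were used and 0 were left out. Columns of the erlotinib group carry numbers that the labels do not tie to single samples.

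Signal was tested with limma 3.58.1 on log2(signal + 1) with a variance trend, over genes with a mean of at least 10, two-sided, with Benjamini-Hochberg adjustment at 0.05. Errors of log2 fold changes are standard errors. Scripts were tested on simulated data. Alternatives were TMM factors, total-count scaling, leaving out the filter, 10 reads in every library, pseudocounts of 0.1 and 10, edgeR 4.0.16, DESeq2 1.42.0, an adjusted p under 0.01, a change of at least 1 log2 unit, the members without antisense transcripts, pseudogenes and copies, and each library left out. Chosen after seeing the data were the limit to members at 10 or more in both groups and the limit to members that share no exon bases with another gene.

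Members and lists were chosen with earlier results of these data known, as were the tests. Named are the regulators, FSIP1, in each role group the most abundant member and the 2 largest rises and falls past the threshold, and 3 genes per list. Others were named after their values were seen. Positions, gene overlaps and promoters came from RefSeq (GRCh38.p14) and exon lengths from GENCODE release 44, matched by symbol for 89 of 89 members. Copies were sought with minimap2 2.31-r1302 (90% aligned, 97% identity). Software was R 4.3.3, Python 3.11.15 and matplotlib 3.10.9.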

Additional observations from a re-analysis of the deposited data

How the results depend on the processing

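No paired analysis was possible because the table's erlotinib columns are numbered 4 to 6 and are not tied to the single samples that the labels number 1 to 3 in each group, and no source states a pairing. Of the 43 called members, 32 kept their call under every alternative scaling, filter, pseudocount and tool and with each library left out, wherever they were tested, at the threshold of 0.05. TMM factors, edgeR and DESeq2 each gave 35 members higher and 8 lower. Scaling to the total count moved the median of all tested genes from 0.02 to 0.19 and gave 4 members lower and a member median of 1.25 instead of 1.08. The member median was 0.80 with a pseudocount of 10 and 0.65 with 10 reads in every library or with members at 10 or more in both groups. Requiring at least 1 log2 unit left 27 members higher and 0 lower, and 2416 genes higher and 1540 lower. With an adjusted p under 0.01, 28 members were higher and 6 lower, and 4323 genes higher and 4456 lower. Without members that share exon bases with another gene, 26 of 38 were higher and 5 lower. The cause of these moves, apart from the fewer genes or stricter limits used, was not tested. With 1 library left out, members higher ranged from 30 to 33, members lower from 6 to 9, the member median from 0.97 to 1.19, genes higher from 4585 to 5094 and genes lower from 4702 to 5096.

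Sign turned for CFAP45 (-0.12 without erlotinib library 6), HYDIN (0.049 with scaling to the total count, 0.24 without DMSO library 3, 0.17 without erlotinib library 5), DNAH6 (-0.10 without DMSO library 1, -0.20 without erlotinib library 5), CFAP44 (-0.0094 without DMSO library 3) and CFAP97 (0.044 with scaling to the total count), none of which passed the test. With 1 library left out their changes lay between -0.12 and 0.59 (CFAP45), -0.46 and 0.24 (HYDIN), -0.20 and 0.65 (DNAH6) and -0.0094 and 0.25 (CFAP44). The fitted rises of the 9 members with a mean under 10 in DMSO moved by over 1.5 times with a pseudocount of 10 and kept their calls. At 3 libraries per group, members with few reads, such as DNAI1, TEKT5 and CFAP45, have wide intervals. Members under a mean of 10 were tested only with no filter on low values. With that setting 40 of 83 members were higher and 8 lower, and 5485 of all genes were higher and 4976 lower.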

Other observations

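Markers of other epithelial cells were read from the same fit. Of 7 club and secretory cell markers, MUC5B alone was tested and did not pass, with means of 908 and 884 (-0.05 ± 0.10 on the log2 scale, limma, adjusted p = 0.69), and SCGB1A1 and SCGB3A2 were at 0 in all libraries. Of 5 basal cell markers, 4 were tested and only KRT15 was lower, from 496 to 372 (-0.41 ± 0.12, limma, adjusted p = 0.0039). Of 6 markers of lung epithelium, the adhesion proteins EPCAM (9852 and 9485) and CDH1 (27824 and 30609) did not pass, while the keratins KRT7, KRT8, KRT18 and KRT19 were lower by 0.63, 0.83, 1.25 and 0.39 on the log2 scale.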
